A study of Homo sapiens with 24 samples.

Results

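ABBV-744 is an inhibitor of the BET proteins, a family that includes BRD2 and BRD3, that prefers their BD2 bromodomain, and the comparison described here is that of 500 nM against 50 nM of this compound in HepG2 cells, a human hepatocellular carcinoma line. The members were the 6 libraries whose titles gave ABBV-744 at either dose without interferon gamma (IFNg), 3 at 500 nM and 3 at 50 nM, of 24 libraries in the series. The other libraries held cells given DMSO (the vehicle), ABBV-075 at 50 nM (an inhibitor of all BET proteins), IFNg, and IFNg with ABBV-075 at 50 nM or with ABBV-744 at 50 or 500 nM, each in 3 libraries. RNA depleted of ribosomal RNA was sequenced with strand information and counted per gene. Every library came from 1 cell line, and the time of the ABBV-744 treatment and the dose of IFNg are not given in the sources used here. Nothing in the labels says that the 3 libraries of a group came from separate cultures, so the p-values measure only the spread between these libraries.

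BET proteins bind acetylated lysines of histones through a pair of bromodomains, BD1 and BD2, and recruit the kinase P-TEFb (CDK9 with a cyclin T), which releases paused RNA polymerase II. P-TEFb is held inactive by the 7SK RNA with HEXIM1, and BET inhibition is known to raise HEXIM1 transcription, for which HEXIM1 is used as a marker of BET inhibitor exposure. DHRS2 is a short-chain dehydrogenase/reductase of mitochondria and nucleus that is induced by several chromatin-directed drugs. Both served as the markers of inhibitor response here.

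The 250 bases upstream of the RefSeq start are shown for both response markers and for 2 of the 3 genes called in the comparison, PA2G4 and PRRC1, since these genes carry the results below. They were read from RefSeq (GRCh38.p14), 5′ to 3′ on the gene strand, and PXDC1, the third called gene, was not among the entries, so that 4 of 5 genes matched. Capitals mark matches on either strand to 4 promoter motifs. These are the TATA box, searched as TATAAA, the CCAAT box by its name, the GC box, searched as GGGCGG, and the E-box, searched as CACGTG, of which GC box matches may overlap. The windows are PA2G4 chr12:56104309-56104558 (+), PRRC1 chr5:127517390-127517639 (+), DHRS2 chr14:23629865-23630114 (+) and HEXIM1 chr17:45148225-45148474 (+).
PA2G4: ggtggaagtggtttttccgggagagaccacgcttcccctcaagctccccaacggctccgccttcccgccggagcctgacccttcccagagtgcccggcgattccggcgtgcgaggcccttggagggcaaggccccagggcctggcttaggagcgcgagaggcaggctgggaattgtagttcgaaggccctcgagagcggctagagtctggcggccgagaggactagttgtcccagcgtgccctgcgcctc
PRRC1: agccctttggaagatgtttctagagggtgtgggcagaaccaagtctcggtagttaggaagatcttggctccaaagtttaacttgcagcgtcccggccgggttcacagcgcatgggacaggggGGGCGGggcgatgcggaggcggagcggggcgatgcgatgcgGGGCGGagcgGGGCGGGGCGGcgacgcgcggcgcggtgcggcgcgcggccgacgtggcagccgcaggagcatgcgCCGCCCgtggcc
DHRS2: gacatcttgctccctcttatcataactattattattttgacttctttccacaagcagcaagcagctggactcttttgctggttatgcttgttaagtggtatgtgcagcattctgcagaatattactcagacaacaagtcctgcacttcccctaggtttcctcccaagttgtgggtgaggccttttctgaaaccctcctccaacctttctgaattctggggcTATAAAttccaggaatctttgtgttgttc
HEXIM1: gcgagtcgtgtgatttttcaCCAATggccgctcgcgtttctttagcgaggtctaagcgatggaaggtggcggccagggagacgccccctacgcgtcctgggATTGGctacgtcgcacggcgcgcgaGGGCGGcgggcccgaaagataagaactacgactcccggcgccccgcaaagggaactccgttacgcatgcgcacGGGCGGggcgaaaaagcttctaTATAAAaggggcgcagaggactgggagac
Among 35116 RefSeq windows of this length, 10.7% held the TATA box, 32.0% the CCAAT box, 42.6% the GC box and 6.3% the E-box. The windows of DHRS2 and HEXIM1 both held the TATA box from base 29 to base 24 before the start, HEXIM1 also held the CCAAT box and the GC box, PRRC1 held 5 matches to the GC box, and PA2G4 held none of the 4 motifs. The GC content of the windows was 67.2% for PA2G4, 70.4% for PRRC1, 43.2% for DHRS2 and 62.4% for HEXIM1. These matches describe the letters only. Gene positions given below are those of GENCODE, whose start of PA2G4 lies inside the RefSeq window.

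The 6 libraries held 24315240 to 27760009 reads, of which 3174722 to 3520912 fell on genes. Reads aligned to several places made up 66.2 to 69.4% of the reads at 50 nM and 64.0 to 68.1% at 500 nM. All 9 hepatocyte markers were detected, with a summed level of 21517 to 24050 CPM (gene counts scaled to a total of 1000000 per library) at 50 nM and 22957 to 24163 CPM at 500 nM. Of the 10 stromal markers 7 had no count in either group and ACTA2 was the only one tested. Of 11 leukocyte markers, 6 at 50 nM and 5 at 500 nM had no count, among them PTPRC, and LYZ gave most of the summed level of 1445 to 1681 CPM and 1526 to 1653 CPM. The 7 endothelial markers summed to 0.298 to 0.951 CPM at 50 nM and 0.574 to 0.64 CPM at 500 nM. Replicate 2 of each dose stood apart, with 32.4% of its gene counts in the 10 leading genes at 50 nM and 30.1% at 500 nM, against 26.5 to 28.3% in the other libraries.

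Few genes were called between the 2 doses in the main fit, which had no replicate block. Among 10967 genes tested, 3 were lower at 500 nM than at 50 nM and 0 were higher in edgeR's quasi-likelihood test with p-values adjusted by Benjamini-Hochberg and a limit of 0.05, which is 0.0274% of the genes. None of them was past a log2 fold change of 1.5, the fold threshold of the study. DESeq2 called 4 lower, these 3 and RUVBL1, and 1 higher, DHRS2. At an unadjusted p under 0.05, 326 genes (2.97%) were higher and 307 (2.8%) lower, and the 3 libraries at 500 nM lay above all 3 at 50 nM for 593 genes (5.41%) and below them for 626 (5.71%). The median standard error of a log2 fold change was 0.179, and the 95% interval lay within 0.5 of zero for 44.5% of the genes, within 1 for 91.2% and within 1.5 for 99.0%. Across 10818 genes with a known GC content, the log2 fold change had a Spearman correlation of -0.42 with the GC content of the transcript, as a description of these 6 libraries, and 1 gene was higher and 15 lower after a correction for GC content. The part of GC content and of the replicate 2 libraries in the result was not tested further. Without replicate 2 of both doses, a choice made after the data were seen, 8 genes were higher and 40 lower, or 0.435% of 11042 genes. A fit with the replicate number as a block gave 180 higher and 140 lower, and 53 and 87 with the GC correction. Same-numbered libraries of the 2 doses correlated by 0.28, 0.38 and 0.05 in their deviations from the group means. This was checked after the calls of the block fit were seen, and the numbers were not taken as pairs. The count of called genes thus depended on this choice.

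**Figure D1:**
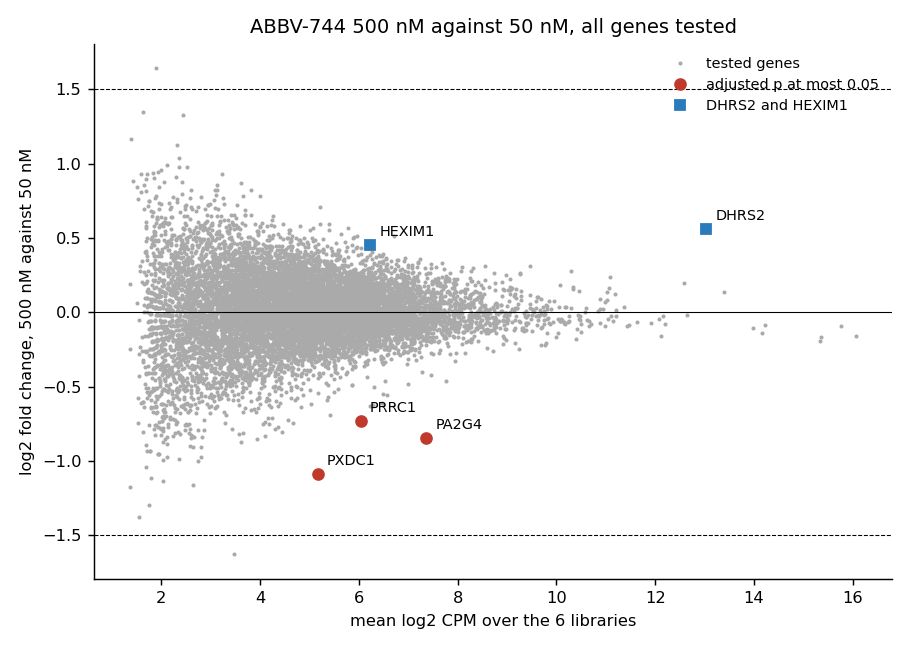
Log2 fold change of ABBV-744 500 nM against 50 nM (vertical axis) by mean log2 CPM over the 6 libraries (horizontal axis), 1 point per gene tested; dashed lines mark a log2 fold change of 1.5 in either direction. The 3 called genes, PA2G4, PXDC1 and PRRC1, lie below the cloud, and DHRS2 lies above the other genes of its level.

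PA2G4 (ENSG00000170515.14, chromosome 12, 56104537 to 56113910, + strand), a growth regulator that binds the receptor ErbB3 and ribosomes, had the smallest p. Its level was 206, 234 and 233 CPM in the 50 nM libraries and 123, 129 and 123 CPM in the 500 nM libraries. The groups did not overlap. It fell, with a log2 fold change of -0.85 ± 0.11 (SE, n = 3 per group) and an adjusted p of 0.0013 in edgeR's quasi-likelihood test. In DMSO it was 240 ± 21.8 CPM (SD, n = 3), and 2 of the 50 nM libraries lay within the range of the DMSO libraries (220 to 264 CPM) and replicate 1 below it. The log2 fold change of 50 nM against DMSO was -0.09, whereas that of 500 nM against DMSO was -0.94. ABBV-075 at 50 nM gave 68.8 ± 6.52 CPM.

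PXDC1 (ENSG00000168994.14, chromosome 6, 3722614 to 3751713, - strand) encodes a protein with a phosphoinositide-binding PX domain. It was measured at 49.1, 52.7 and 55.5 CPM at 50 nM and at 21.8, 26.9 and 25.5 CPM at 500 nM. All 500 nM libraries were below all 50 nM libraries, by 2.13-fold (log2 fold change -1.09 ± 0.15, adjusted p = 0.00234 in edgeR's quasi-likelihood test). DMSO libraries held 67.4 ± 6.25 CPM. PXDC1 was called lower than DMSO at both doses, at a log2 fold change of -0.35 for 50 nM and -1.44 for 500 nM.

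PRRC1 (ENSG00000164244.21, chromosome 5, 127517640 to 127555085, + strand), a Golgi-associated protein, was at 89.6, 78.7 and 87.5 CPM at 50 nM. At 500 nM its level was 49.9, 48.9 and 56.0 CPM, below each 50 nM library. The fall was 1.66-fold (log2 fold change -0.73 ± 0.13, adjusted p = 0.0346 in edgeR's quasi-likelihood test). The 50 nM libraries overlapped those of DMSO, at 94.7 ± 13.7 CPM, with a log2 fold change of -0.14 that was not called. The 500 nM libraries overlapped those of ABBV-075, at 52.3 ± 2.75 CPM.

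PA2G4 and PXDC1 were each called lower in 17 of 18 alternatives planned for the fit, and PRRC1 in 12 of 18. Each call was still lost without a certain single library. Without 50 nM replicate 3 none of the 3 genes was called, with 554 genes at an unadjusted p under 0.05, although the log2 fold changes were -0.82 for PA2G4, -1.04 for PXDC1 and -0.71 for PRRC1. PRRC1 was also lost without 50 nM replicate 1 (adjusted p = 0.178) and without 500 nM replicate 1 (0.189), replicate 2 (0.0526) or replicate 3 (0.155) in edgeR's quasi-likelihood test. Without 50 nM replicate 2, 9 genes were lower and 1 higher, and without 500 nM replicate 2, 4 were lower and 1 higher. For each of the 3 genes the exact two-sided permutation test of 3 against 3 libraries gave p = 0.1. Groups that do not overlap always give this value, the smallest the test allows, so it adds no support to the calls.

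**Figure D2:**
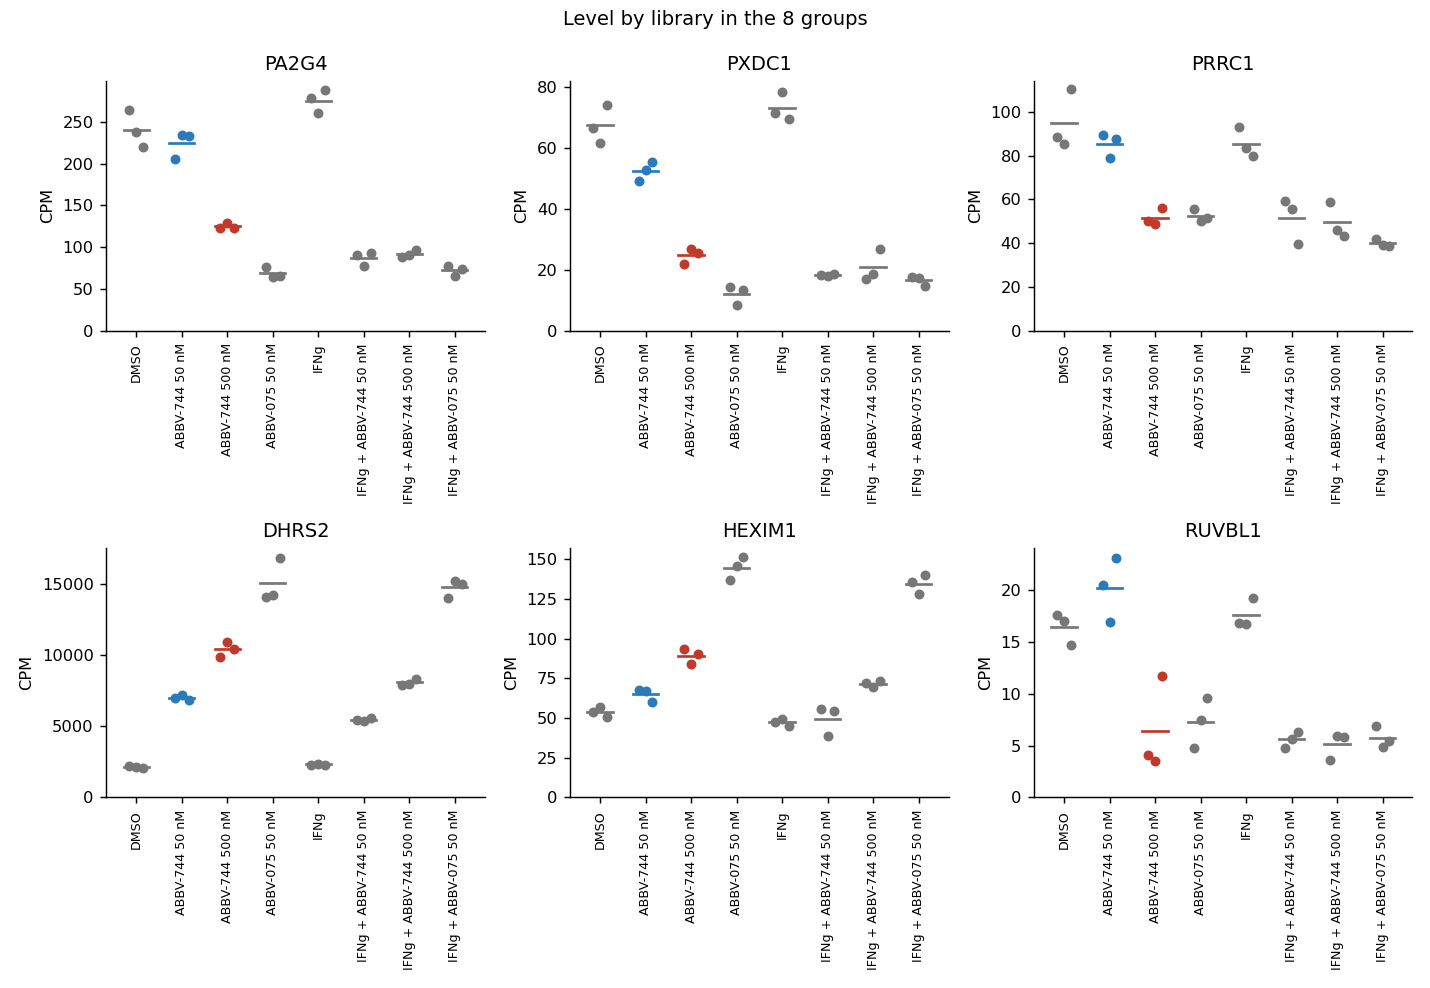
Level in CPM (vertical axes, linear from 0) of the 3 called genes, the response markers DHRS2 and HEXIM1, and RUVBL1 in each library of the 8 groups (horizontal axes); points are libraries and bars are means of 3. PA2G4 stands at 206 to 234 CPM at 50 nM (blue) and 123 to 129 CPM at 500 nM (red), and the DHRS2 libraries lie at 6819 to 7228 CPM and 9904 to 10891 CPM.

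DHRS2 (ENSG00000100867.15, chromosome 14, 23630115 to 23645639, + strand) was at 6996, 7228 and 6819 CPM at 50 nM and at 9904, 10891 and 10427 CPM at 500 nM. The groups were well apart, by 1.48-fold (log2 fold change 0.56 ± 0.11), but the adjusted p was 0.089 in edgeR's quasi-likelihood test, short of a call. It was called higher in 8 of 17 alternatives planned for the fit. These included DESeq2 (adjusted p = 6.36e-07), the fit of all 24 libraries (adjusted p = 0.000231), and the replicate block without and with the GC correction. The order of the mean levels was DMSO (2148 ± 76.9 CPM), 50 nM (7014 ± 205), 500 nM (10407 ± 494) and ABBV-075 at 50 nM (15051 ± 1527), with no overlap between neighbours. DHRS2 was called higher than DMSO at both doses, at a log2 fold change of 1.72 and 2.28.

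HEXIM1 (ENSG00000186834.4, chromosome 17, 45148475 to 45152099, + strand) was at 67.9, 66.8 and 60.2 CPM at 50 nM and at 93.7, 84.1 and 90.1 CPM at 500 nM, again without overlap. The log2 fold change was 0.45 ± 0.12, with a 95% interval of 0.20 to 0.71 and an adjusted p of 0.431 in edgeR's quasi-likelihood test, so that no difference was called, and DESeq2 gave an adjusted p of 0.999. HEXIM1 was called higher in 2 of 18 alternatives planned for the fit, and also without replicate 2 of both doses (log2 fold change 0.52, adjusted p = 0.0232 in edgeR). Those 2 were edgeR's replicate block without and with the GC correction (adjusted p = 0.000949 and 0.000817), though the replicate numbers were not taken as pairs. Against DMSO (53.7 ± 3.14 CPM), HEXIM1 was called at 500 nM (log2 fold change 0.74, adjusted p = 1.9e-05 in the same test) and not at 50 nM (0.29, adjusted p = 0.0816). ABBV-075 at 50 nM gave 145 ± 7.44 CPM.

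Of 22 BET proteins and P-TEFb regulators, 21 were tested and 0 were called in either direction by edgeR's quasi-likelihood test or by DESeq2. At an unadjusted p under 0.05, 2 were higher, HEXIM1 and CCNT1 (cyclin T1, log2 fold change 0.29), and 0 were lower, beside 2.97% and 2.8% of all genes. The 500 nM libraries lay above the 50 nM libraries for 2 of the 21, beside 5.41% of all genes, and below for 3, HEXIM2, CDK9 and NELFA, beside 5.71%. The median log2 fold change was 0.05, beside 0.01 over all genes tested, and lay between -0.05 and 0.08 over the alternatives. The level of BRD2, a target of the compound, was close between the doses. BRD2 was at 148 ± 7.85 CPM at 50 nM and 161 ± 14.3 CPM at 500 nM (SD over 3 libraries), and its log2 fold change was 0.12 (95% interval -0.12 to 0.35). BRD3 was lower by a log2 value of -0.42 with an interval that held zero (-0.89 to 0.05). CDK9, the kinase, differed by -0.37 (-0.90 to 0.16) and RN7SK, the 7SK RNA, by -0.09 (-0.39 to 0.21).

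**Figure D3:**
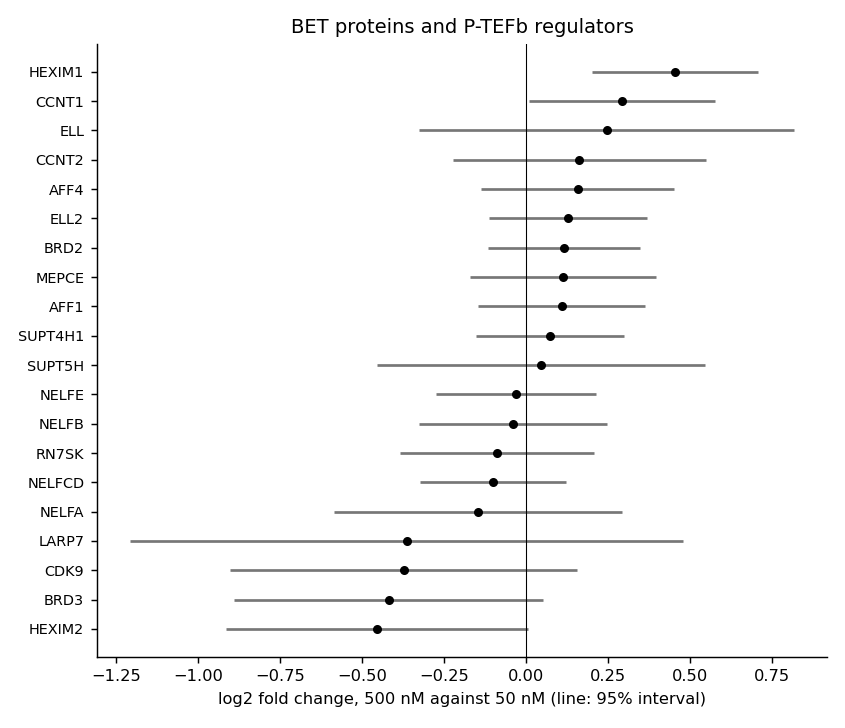
Log2 fold change of 500 nM against 50 nM (horizontal axis; point) with its 95% interval (line) for 20 of the 21 tested BET proteins and P-TEFb regulators (vertical axis). The interval of HEXIM1, 0.20 to 0.71, lies above zero, and those of BRD2 and BRD3 hold zero.

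The genes next in order of p were chosen after their values were seen. RUVBL1, an ATPase of chromatin remodelling complexes, was at 20.5, 16.9 and 23.1 CPM at 50 nM and at 4.06, 3.52 and 11.8 CPM at 500 nM. The groups did not overlap, but 500 nM replicate 3 was far above the other two libraries, and the log2 fold change of -1.63 ± 0.31 was not called (adjusted p = 0.0841 in edgeR's quasi-likelihood test). RUVBL1 was called lower in 9 of 18 alternatives, among them DESeq2 (log2 fold change -1.64, adjusted p = 0.0362), where it was the gene past the fold threshold, and edgeR without 500 nM replicate 3 (-2.40, adjusted p = 0.00202). The replicate block, without and with the GC correction, was also among them. AKIRIN1, a nuclear protein, gave -0.61, NUP50, a nuclear pore protein, -0.63 and CDC42, a small GTPase, -0.62, with adjusted p-values of 0.089, 0.089 and 0.132. Each of these 4 genes was lower at 500 nM in all libraries, and none was called at 50 nM against DMSO. EFR3B, which anchors the kinase PI4KA at the plasma membrane, had the smallest p in the list of the PI4KA complex and was not called. It was at 3.27, 3.14 and 2.85 CPM at 50 nM and at 6.67, 7.04 and 9.76 CPM at 500 nM (log2 fold change 1.33 ± 0.32, adjusted p = 0.287).

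A pair of lists came from the study itself, as genes that fell (Module 1) or rose (Module 2) together under 3 BET inhibitors, ABBV-075 among them. The study describes their choice on samples given DMSO or one of these inhibitors, ABBV-744 not among them. Whether the DMSO and ABBV-075 libraries analysed here were those samples is not stated, so the counts against DMSO are not taken as independent of the choice. Of 205 tested Module 1 genes, 1 (PXDC1) was called lower and 0 higher. At an unadjusted p under 0.05, 41 were lower and 0 higher, beside 2.8% and 2.97% of all genes. The 500 nM libraries lay below the 50 nM libraries for 57, or 27.8% beside 5.71% of all genes. DESeq2 called PXDC1 too. The median log2 fold change of the list was -0.25, and it was -0.24 after GC correction and -0.29 without replicate 2 of both doses. After PXDC1, the smallest p-values were those of SLC22A3, an organic cation transporter (log2 fold change -0.49), GPD1, the cytosolic glycerol-3-phosphate dehydrogenase (-0.54), and CPLX2, a complexin (-0.40), none of which was called. Side by side, the list had 95 of 240 members lower than DMSO at 50 nM (median -0.44), beside 10.1% of all genes, and 140 of 239 at 500 nM (median -0.73), beside 7.8%. Both comparisons share the DMSO libraries.

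Of 42 tested Module 2 genes, 0 were called by edgeR's quasi-likelihood test and DHRS2 was called by DESeq2. At an unadjusted p under 0.05, 9 were higher and 0 lower, beside 2.97% and 2.8% of all genes. For 10 (23.8%, beside 5.41% of all genes) all 500 nM libraries lay above the 50 nM libraries. The median log2 fold change was 0.29. CNNM4, a magnesium transporter, gave 0.59 after DHRS2, EFR3B and HEXIM1 in the order of p. Against DMSO, 16 of 38 members were higher at 50 nM, beside 8.81% of all genes, and 21 of 40 at 500 nM, beside 7.48%.

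The other lists held no gene called by edgeR's quasi-likelihood test, and DESeq2 called DHRS2 alone in them. Mitosis genes had a median log2 fold change of 0.10, and 8 of 39 were higher at an unadjusted p under 0.05, beside 2.97% of all genes, led by ANLN (anillin, 0.52) and the checkpoint kinase BUB1 (0.36). Of these 39, 5 had libraries that did not overlap in the higher direction and 1 in the lower, beside 5.41% and 5.71% of all genes. Against DMSO, their median was -0.13 at 50 nM, with 3 called higher and 8 lower, beside 8.81% and 10.1% of all genes. At 500 nM it was -0.005, with 4 called higher and 0 lower, beside 7.48% and 7.8%. The 500 nM libraries thus had the median closer to DMSO. Of 20 histone genes 5 were higher at an unadjusted p under 0.05, beside 2.97% of all genes, with the linker histone H1F0 at 0.25. At the same unadjusted p, 3 of 42 DNA replication genes were higher and 1 lower, beside 2.97% and 2.8% of all genes, with RRM2, a ribonucleotide reductase subunit, at 0.31. In the list of cyclins D, CDK inhibitors and p53 targets 4 of 26 were higher at an unadjusted p under 0.05, beside 2.97% of all genes. No member was called, with BTG1 at 0.79 (adjusted p = 0.75 in edgeR) and MDM2 at 0.31 (0.775).

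Lists of liver function had medians between -0.12 and 0.02, beside 0.01 over all genes tested, and no member was called. Of 29 secreted plasma proteins 25 had a log2 fold change below zero, with a median of -0.07. At an unadjusted p under 0.05, 1 was lower (ORM1, an acute-phase protein, -0.26), beside 2.8% of all genes. Apolipoproteins had 14 of 17 below zero and a median of -0.12, with 0 at an unadjusted p under 0.05. Of 28 complement and coagulation genes, 3 were lower at that level, beside 2.8% of all genes, with CPB2 at -0.49 and C4BPB at -0.57. Cytokines, chemokines and EGF-family ligands had 15 of 17 below zero and a median of -0.14. Of these 17, 4 were lower at an unadjusted p under 0.05, beside 2.8% of all genes, with LIF at -0.56 and TGFA at -0.37. Amino acid and urea cycle enzymes (median -0.09), FXR and bile acid genes (-0.08) and cholesterol synthesis genes (0.02) were on both sides of the value of all genes. Over the alternatives these medians lay between -0.21 and -0.04, -0.23 and -0.02, and -0.02 and 0.05, and that of the cytokine list between -0.29 and -0.11. Without replicate 2 of both doses, the 500 nM libraries lay below the 50 nM libraries for 11 of 27 amino acid genes and 7 of 12 FXR genes, beside 19.8% of all genes. The same held for 9 of 17 cytokine genes, 7 of 17 apolipoproteins, 11 of 29 secreted plasma proteins and 9 of 28 complement genes. The share was smaller than that of all genes for cholesterol genes, at 4 of 25 (16%). Other lists went higher, beside 20.5% of all genes above. Of 20 histone genes 10 lay above and 3 below, of 39 mitosis genes 18 and 4, and of 42 DNA replication genes 17 and 5. The medians of the lists not named here lay between -0.10 and 0.06. MYC, which is known as a BET target in blood cancers, was at 86.6 to 102 CPM at 50 nM and 83.8 to 89.4 CPM at 500 nM (log2 fold change -0.12, 95% interval -0.37 to 0.13). Against DMSO, MYC was called lower at 500 nM (-0.31, adjusted p = 0.0397 in edgeR's quasi-likelihood test) and not at 50 nM (-0.19, 0.224).

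**Figure D4:**
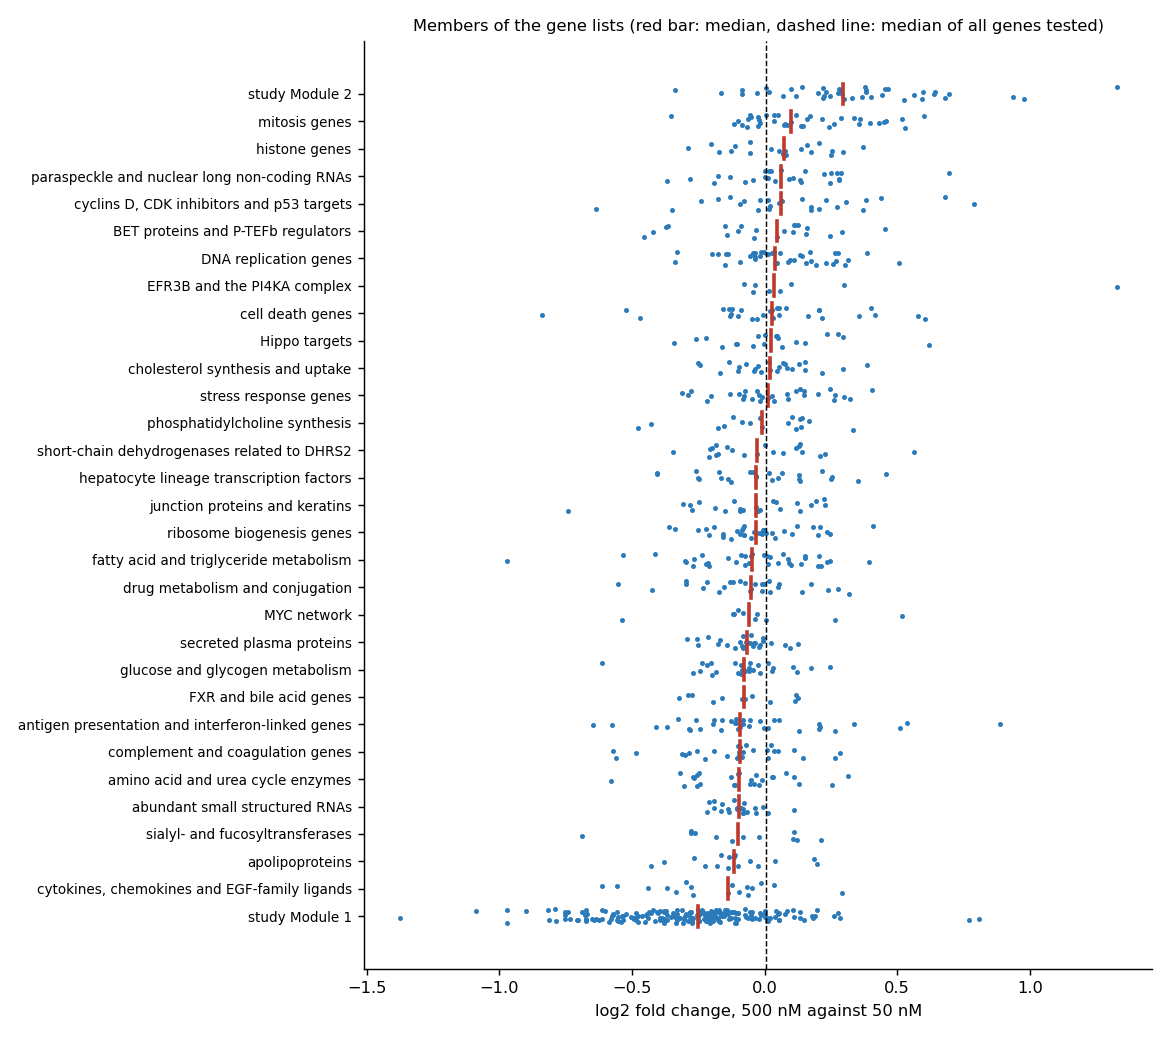
Log2 fold change of 500 nM against 50 nM (horizontal axis) of the tested members of each gene list other than the marker lists (vertical axis, ordered by median); points are genes, red bars are list medians and the dashed line is the median of all genes tested. Among the lists drawn, Module 1 of the study has the lowest median, -0.25, and Module 2 the highest, 0.29.

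Each dose was set beside DMSO to place the levels. At 50 nM, 979 genes were called higher and 1123 lower (18.9% of 11116), and at 500 nM 832 higher and 868 lower (15.3% of 11124), with the same test. Past a log2 fold change of 1.5 there were 10 higher and 21 lower at 50 nM and 3 higher and 35 lower at 500 nM. With scaling by library size only, the split was 415 higher and 1220 lower at 50 nM and 475 higher and 1067 lower at 500 nM. With the GC correction it was 623 and 575 at 50 nM and 935 and 1058 at 500 nM. Which dose had more called genes thus changed with this correction. The counts of the main fit moved by over 1.5 times without DMSO replicate 2 (330 higher and 378 lower at 50 nM, 371 and 422 at 500 nM) and DMSO replicate 3 (432 and 468, and 422 and 452). The same held without 50 nM replicate 3 (565 and 591) and 500 nM replicate 3 (489 and 514).

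With IFNg, the same 2 doses were compared in 6 further libraries. DHRS2 was at 5443, 5360 and 5605 CPM at 50 nM and at 7926, 7997 and 8318 CPM at 500 nM, a log2 fold change of 0.59 that was called. HEXIM1 was at 55.4, 38.6 and 54.3 CPM and at 71.8, 69.3 and 73.1 CPM, and was called too (0.55). With all 24 libraries in the fit only 1 gene was called higher with IFNg, so the calls of DHRS2 and HEXIM1 were not both kept there. Both markers differed in the same direction without IFNg. The 3 genes called without IFNg did not follow. PA2G4 was at 86.7 ± 8.50 CPM at 50 nM and at 91.5 ± 4.14 CPM at 500 nM with IFNg, PXDC1 at 18.4 ± 0.356 and 20.8 ± 5.21 CPM, and PRRC1 at 51.5 ± 10.4 and 49.4 ± 8.26 CPM, and none of them was called. In IFNg alone these genes were at 275 ± 13.9, 73.1 ± 4.67 and 85.5 ± 6.96 CPM.

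In all, 155 genes were higher and 32 lower at 500 nM with IFNg (1.7% of 11022), or 76 and 92 with scaling by library size only. With all 24 libraries in the fit, 1 was higher and 1 lower. Leaving out 1 library, the counts ranged between 59 and 5 without IFNg + ABBV-744 500 nM replicate 2 and 334 and 139 without its replicate 1, and also fell by over 1.5 times without its replicate 3 (81 and 14) or without replicate 1 (96 and 9), 2 (78 and 10) or 3 (85 and 12) of IFNg + ABBV-744 50 nM. Of 20 histone genes 9 were called higher, and 6 of 22 abundant small structured RNAs, beside 1.41% of all genes. Of 40 Module 2 genes 8 were higher, beside the same 1.41%. Of 197 Module 1 genes 10 were lower, and of 26 drug metabolism genes 4, beside 0.29% of all genes. In the fit of all 24 libraries no more than 1 gene in each direction could be among these. Reads aligned to several places made up 57.5 to 59.6% at 50 nM and 64.3 to 66.3% at 500 nM with IFNg, and their part in these counts was not tested.

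The difference between the dose effects without and with IFNg was called for 3 of 11343 genes (0.0264%) by edgeR's quasi-likelihood test. It was 0.92 on the log2 scale for PA2G4 (adjusted p = 0.0129) and 1.26 for PXDC1 (adjusted p = 0.0344). For RNA45S5, the ribosomal RNA precursor, which depletion also acts on, it was 0.72 (adjusted p = 0.032). That of PRRC1 was not called (0.66, adjusted p = 0.309), nor that of DHRS2 (-0.01) or HEXIM1 (0.07). The count was 0 without 50 nM or 500 nM replicate 3, IFNg + ABBV-744 50 nM replicate 2, or IFNg + ABBV-744 500 nM replicate 2 or 3, with 850 to 1368 genes at an unadjusted p under 0.05. It was 1 without 500 nM replicate 1 or without replicate 1 or 3 of IFNg + ABBV-744 50 nM, and 82 higher and 31 lower without 500 nM replicate 2. Without 50 nM replicate 1 it was 4 higher and 1 lower. Across 10751 genes the dose effects without and with IFNg, which share no library, had a Pearson correlation of -0.08, and of -0.22 across the 4853 genes whose average log2 CPM reached 5, as a description only.

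**Figure D5:**
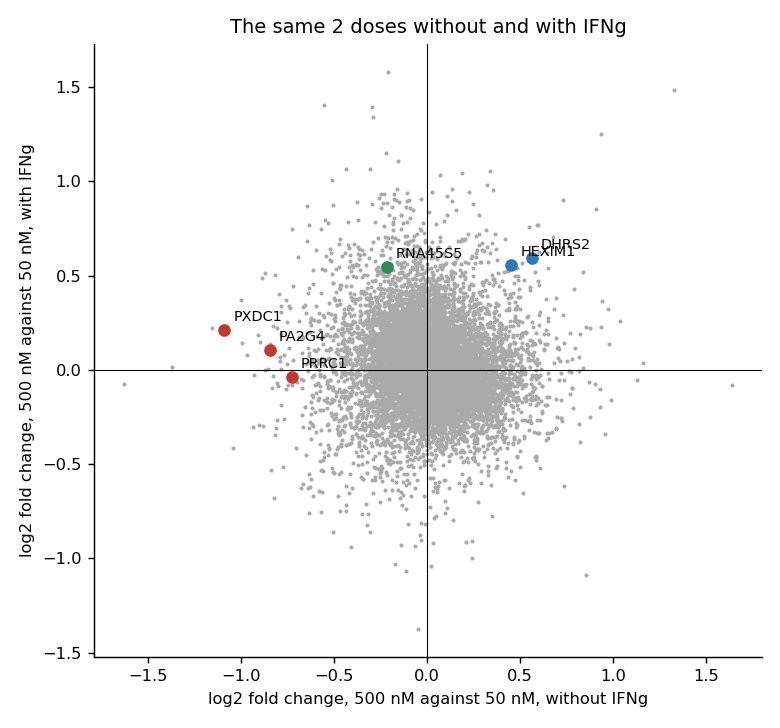
Log2 fold change of 500 nM against 50 nM with IFNg (vertical axis) by that without IFNg (horizontal axis), 1 point per gene tested in both. DHRS2 and HEXIM1 (blue) lie above zero on both axes, whereas PA2G4, PXDC1 and PRRC1 (red) lie below zero without IFNg and near zero with it.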

How the data were processed

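Per the labels and the methods of the study, RNA was depleted of ribosomal RNA, sequenced directionally and aligned to hg38, with CASAVA 1.8.2, Trimmomatic 0.33, STAR 2.7.1 and DESeq2 named in the submitters' processing notes. The values deposited by the authors are unnormalized whole-number counts for each gene symbol, in the layout of STAR gene counts, which leave out reads aligned to several places, and the annotation used is not given in the sources used here. Column 4, the strand of the gene, was analysed for 26475 symbols.

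Groups followed the sample titles. The dose comparisons were fitted with edgeR 4.0.16 under R 4.3.3 (filterByExpr, TMM, glmQLFit and glmQLFTest, Benjamini-Hochberg adjustment over all genes tested) with no covariate, and each fit held only the libraries it compared. A gene was called at an adjusted p of at most 0.05. Standard errors are the log2 fold change divided by the square root of F. CPM are counts scaled to a total of 1000000 per library with TMM factors over all 24 libraries. The exact permutation test used log2(CPM + 0.5). The methods were tested on simulated counts.

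Named genes were up to 12 per direction with the largest change among called genes of a mean log2 CPM of at least 1 whose groups did not overlap, the response markers, the tested BET and P-TEFb genes (some named by this rule are not reported here), up to 4 with the smallest p from each other list and the 4 with the smallest p for the difference with IFNg. Genes outside this rule are named as chosen after their values were seen. The members and lists were chosen with earlier results of these data known. Alternatives were DESeq2 1.42.0, other normalizations, filters, both strands together, a GC correction by lowess, a replicate block, thinning, and leaving out libraries. Over the 6 libraries 11.95 to 13.84% of the reads fell on genes, and reads assigned to no gene were left out of library sizes and tests.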

Additional observations from a re-analysis of the deposited data

Results flagged for a closer look

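The effect of dose was called different between cells without and with IFNg for 3 genes in edgeR's quasi-likelihood test of the difference itself. The count was 0 without certain single libraries, such as 50 nM or 500 nM replicate 3, and 17 higher and 2 lower with the GC correction. For PA2G4 the difference of the log2 fold changes was 0.917 (adjusted p = 0.0129), with -0.85 without IFNg and 0.11 with it. For PXDC1 it was 1.26 (adjusted p = 0.0344), with -1.09 and 0.21. For RNA45S5 it was 0.723 (adjusted p = 0.032), with -0.22 and 0.54. PA2G4 and PXDC1 had been called lower at 500 nM without IFNg, and RNA45S5 had been called higher at 500 nM with IFNg. The difference uses the same libraries as those calls and is not independent of them. RNA45S5 had 874, 1072 and 946 CPM at 50 nM and 807, 873 and 821 CPM at 500 nM without IFNg, and 786, 797 and 799 CPM and 1046, 1139 and 1217 CPM with it. It is the precursor of ribosomal RNA, which was depleted in the preparation.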

How the results depend on the processing

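The log2 fold changes of the 3 called genes kept their sign under every alternative run, between -0.91 and -0.81 for PA2G4, -1.15 and -1.01 for PXDC1 and -0.89 and -0.69 for PRRC1. With DESeq2, 1 gene was higher, and 1 was lower past the fold threshold. With library size only, 1 was higher and PRRC1 was not called. Without a filter on low counts 2 were higher and 11 lower (1 past the fold threshold), with all 24 libraries in the fit 1 and 8 (1), with the GC correction 1 and 15 (1), and with thinned libraries 5 were lower (1). Without replicate 2 of both doses, added after the data were seen, 8 were higher and 40 lower, with 0 past the fold threshold. Leaving out 1 library gave 0 to 1 higher, 0 to 9 lower and 0 to 1 lower past the fold threshold.

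No block was planned, because the methods name none, and the pairing was checked only after the calls of the block fit were seen. Same-numbered libraries of the 2 doses correlated by 0.28, 0.38 and 0.05 in their deviations from the group means. For replicates 1 and 2 of 50 nM the same-numbered library was the best match, whereas replicate 3 correlated best with 500 nM replicate 1 (0.16). The numbers were not taken as pairs. A replicate block gave 180 higher and 140 lower (1 past the fold threshold in each direction), and with the GC correction 53 and 87 (1 in each). The block gave 58 lower with IFNg, and 7 higher and 1 lower for the difference. With the GC correction it gave 44 and 2 for the difference and 476 and 427 for 50 nM against DMSO.

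For 50 nM against DMSO, DESeq2 gave 537 higher and 602 lower, library size only 415 higher, and the GC correction 623 and 575. Leaving out 1 library gave 330 to 1203 higher and 378 to 1468 lower. For 500 nM against DMSO, DESeq2 gave 492 and 490, library size only 475 higher, and the GC correction 935 and 1058. Leaving out 1 library gave 371 to 995 and 422 to 1008 there. With IFNg, DESeq2 gave 75 and 13, library size only 76 and 92, no filter 51 lower, all 24 libraries 1 and 1, the GC correction 86 and 10, thinning 21 lower, and leaving out 1 library 59 to 334 and 5 to 139. For the difference, no filter gave 59 and 28, the GC correction 17 and 2, and leaving out 1 library 0 to 82 and 0 to 31. The causes of these moves were not tested. Of 648 list counts recomputed, 578 stayed the same by the rule of 1.5 times. At this depth, with 3174722 to 3520912 reads on genes, the 95% interval lay within 0.5 of zero on the log2 scale for 44.5% of the genes, and for the other genes it reached larger values.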
